A study of Mus musculus with 10 samples.

Results

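The AP-1 and IER immediate early genes are a group of 10 named mouse genes, taken here by symbol: Fos, Fosb, Fosl2, Jun, Junb, Jund, Atf3, Ier2, Ier3 and Ier5. All 10 were on the array, with 14 probes of 56605, and 8 of them had a probe that passed the filter on dim probes, among 22008 genes that did. Fosl2 and Ier3 did not pass and are described separately. The colonies carry BCR-ABL, a fusion tyrosine kinase that transforms blood progenitors, per the series' title and labels. Bone marrow of 6-week-old donors was exposed to retrovirus, moved after 24 h into methylcellulose without growth factors and grown for 10 days, and RNA was taken from picked colonies.

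Both mutant genotypes concern Cdk6, a kinase that drives cells out of G1 and also acts in transcription. Cdk6-/- lacks the gene, and Cdk6-K43M carries a point change known to abolish kinase activity. RNA of 4 samples of each genotype was labelled with Cy5 and set against the same pool of 4 Cdk6+/+ (wild-type) samples in Cy3. On 1 further array per genotype the dyes were exchanged, with the pooled RNA of its 4 samples labelled with Cy3 and that of the wild-type pool with Cy5. The mutant and wild-type colonies shared the virus, the medium without growth factors and the 10 days of growth. The labels do not say how many colonies, animals or cultures lie behind a sample, so p-values measure the spread between these samples, which may be partly technical. Colonies that grew without growth factors were the only cells sampled, and fewer cells of a type cannot be told apart from less RNA per cell.

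AP-1 is a dimeric transcription factor built from FOS-type and JUN-type proteins, and ATF3 is a related leucine zipper protein that pairs with JUN proteins. Most of these genes are transcribed within minutes of a stimulus through pre-bound factors such as SRF and CREB, which MAP kinases downstream of growth factor receptors or BCR-ABL activate, and their mRNAs are short-lived. The IER genes are induced by the same stimuli and encode small proteins that are not AP-1 subunits. JUNB and JUND are known to restrain growth in several cell types in which JUN and FOS promote it.

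RefSeq promoter sequences (GRCm38.p6) matched 9 of the 10 genes, and Ier2 was not matched. The 250 bases before the start of Fos, Jun, Atf3 and Fosb are shown because the first 3 had the largest SDs among the measured members, and Fosb is a close relative of Fos. Capitals mark matches to the motifs searched: the cyclic AMP response element TGACGTCA, its relaxed form TGANNTCA, its opening bases TGACG, the AP-1 element TGANTCA, the CArG box bound by SRF (all on both strands) and TATAAA on the printed strand only.
Fos (chr12:85473640-85473889, plus strand): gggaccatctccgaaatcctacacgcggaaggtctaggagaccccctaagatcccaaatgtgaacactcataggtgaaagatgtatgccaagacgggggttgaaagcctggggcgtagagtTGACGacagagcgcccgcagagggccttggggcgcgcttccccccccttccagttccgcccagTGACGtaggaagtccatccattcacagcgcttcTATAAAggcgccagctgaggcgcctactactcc
Jun (chr4:95052223-95052472, minus strand): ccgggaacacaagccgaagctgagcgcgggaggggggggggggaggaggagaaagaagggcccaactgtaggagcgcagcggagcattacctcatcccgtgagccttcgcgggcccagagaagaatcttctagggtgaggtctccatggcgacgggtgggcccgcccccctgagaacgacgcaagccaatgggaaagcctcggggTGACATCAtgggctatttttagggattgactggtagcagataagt
Atf3 (chr1:191183334-191183583, minus strand): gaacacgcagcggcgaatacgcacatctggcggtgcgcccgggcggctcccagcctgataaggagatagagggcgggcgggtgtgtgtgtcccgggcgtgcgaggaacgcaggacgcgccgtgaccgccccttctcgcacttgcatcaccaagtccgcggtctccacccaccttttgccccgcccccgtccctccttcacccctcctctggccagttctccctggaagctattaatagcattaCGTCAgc
Fosb (chr7:19310046-19310295, minus strand): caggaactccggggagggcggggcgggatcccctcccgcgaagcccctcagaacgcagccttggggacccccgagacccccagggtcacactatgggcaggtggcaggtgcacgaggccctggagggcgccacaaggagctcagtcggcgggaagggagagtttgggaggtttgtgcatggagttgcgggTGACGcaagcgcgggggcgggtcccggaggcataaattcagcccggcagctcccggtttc
TGACG, which overlaps the full and relaxed elements, was in 4 of the 9 promoters (Fos, Fosb, Junb and Atf3), against 17.8% of 32851 promoters of the same length. In Fos it began 129 and 66 bases before the start, with TATAAA 33 bases before it. TGANNTCA was in Jun, 45 bases before the start, and in Jund, against 11.9% of promoters. TATAAA was in Fos alone of the 9, against 7.59%. TGACGTCA (1.55% of promoters), TGANTCA (6.75%) and the CArG box (1.47%) had no match in these windows, and Ier5, Fosl2 and Ier3 held none of the 6 motifs. A match is a description of letters, and no match says only that those letters are not in this window.

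By array, the share of probes well above background was 46.9% to 49.9% in the mutant channel and 45.8% to 50.04% in the wild-type channel. No member spot was saturated or marked as an outlier. All 13 B-lineage progenitor markers (such as Pax5 and Rag1) were well above background in every sample and every wild-type channel. Among genes with a call, 46.8% of the 1593 in Cdk6-/- and 48.6% of the 4422 in Cdk6-K43M were higher than wild type. With Agilent's processed signals these shares were 57.4% of 808 and 66.4% of 3827, and with median centring in place of loess they were 63.5% of 802 and 87.9% of 6368. Median centring also moved the median change of all genes in Cdk6-K43M from -0.01 to 0.11 (log2). Between the mutants, 51.3% of 113 calls were higher in Cdk6-K43M, and 65.9% of 126 with median centring.

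All values below are log2 ratios of mutant to wild-type pool unless stated, so that 0 is the wild-type level and 1 a doubling. Changes against wild type come from a limma fit to all 10 arrays with a dye term, and the difference between the mutants from a limma fit to the 8 single-sample arrays. A change was called at a Benjamini-Hochberg adjusted p under 0.05 over all 22008 genes. Of these, 12997 had a symbol, and the rest were counted under the array's own transcript name. Shares of all genes include both kinds, while the members and lists hold symbols only. In Cdk6-/- 1 of the 8 measured members was called (Ier5, lower), against a background of 7.24% of all genes (3.39% higher and 3.85% lower). In Cdk6-K43M 2 of 8 were called (Ier2 and Jund, both higher), against 20.1% (9.77% higher and 10.3% lower). Between the mutants 1 of 8 was called (Ier2, higher in Cdk6-K43M), against 0.513% (0.264% higher and 0.25% lower). These shares rest on 8 genes, and a count of 1 or 2 is too small to set the group apart from the background. Their median change was -0.11 in Cdk6-/- and 0.18 in Cdk6-K43M, against 0.00 and -0.01 for all genes. The fitted difference was above 0 for 8 of 8 members, with a median of 0.26, where 52.4% of all genes were below 0. Without Cdk6-K43M replicate 4, Jun turned to -0.18. With Agilent's processed signals, which carry no offset, the differences of the dim members Fos and Atf3 were 1.23 and 1.13 (limma adjusted p = 0.539 and 0.531) in place of 0.76 and 0.68. Median centring, which moved the median difference of all genes to 0.07, gave 0.56 for Jund (adjusted p = 0.0529), 0.35 for Ier5, 0.25 for Jun and 0.23 for Junb in place of 0.34, 0.18, 0.06 and 0.08.

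**Figure D1:**
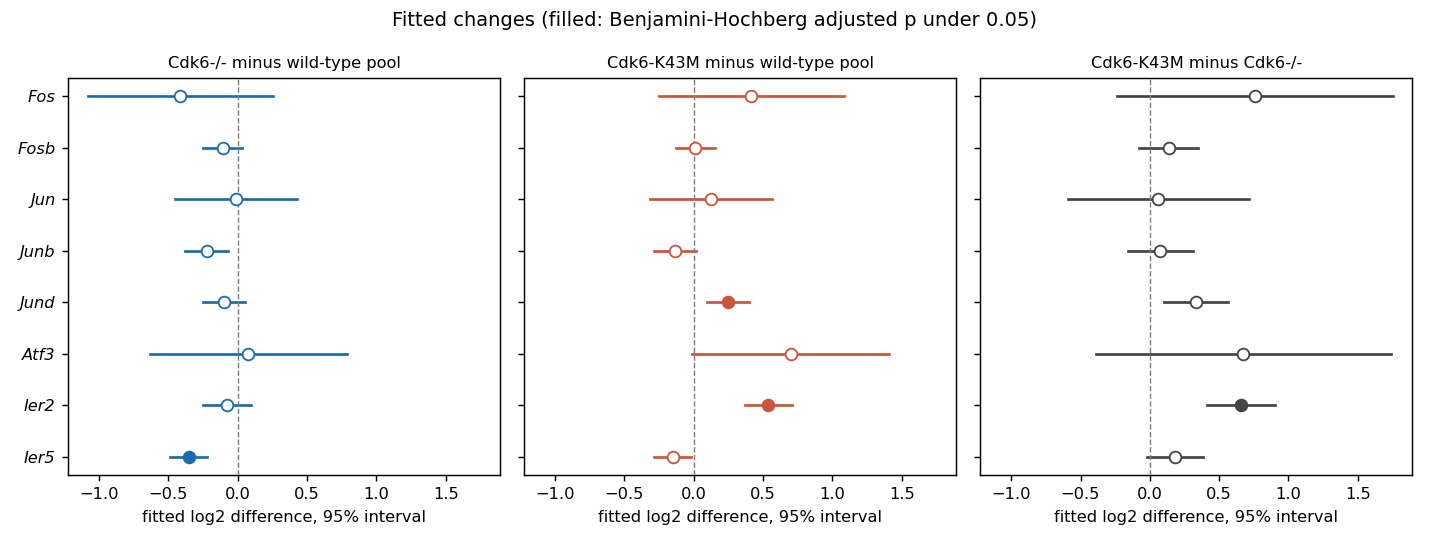
Fitted log2 change (x axis) of the 8 measured AP-1 and IER genes (y axis) in Cdk6-/- against the wild-type pool, in Cdk6-K43M against it, and between the mutants. Points are estimates, bars 95% intervals, and filled points passed an adjusted p of 0.05: Ier5 in the left panel at -0.35, Jund and Ier2 in the middle panel at 0.24 and 0.54, and Ier2 in the right panel at 0.66.

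Ier2, an immediate early gene of the IER family, was the only member called between the mutants. It read -0.10, -0.30, -0.35 and -0.12 in Cdk6-/- replicates 1 to 4 and 0.30, 0.63, 0.26 and 0.56 in Cdk6-K43M replicates 1 to 4. Every Cdk6-K43M sample was above the wild-type pool and every Cdk6-/- sample below it, so the groups did not overlap. Ier2 and Jund were the 2 of 8 members with groups that did not overlap, against 8.16% of all genes. The raw Cy5 signal of the Ier2 probe ran from 678.5 to 906 in Cdk6-/- and from 1151 to 1618 in Cdk6-K43M, over a local background of 56 to 62.

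The group means of Ier2 were -0.22 ± 0.13 (SD, n = 4) in Cdk6-/- and 0.44 ± 0.18 (SD, n = 4) in Cdk6-K43M. The fitted difference was 0.66 (SE 0.109, limma adjusted p = 0.0442), which is 1.58-fold, with a 95% interval of 0.41 to 0.90. Within the 3 slides the difference was 0.40, 0.83 and 0.57. Groups that do not overlap must give a value above 0 on each slide, and slides 1 and 3 held 1 sample of each genotype. The direction held in every alternative run, but the call was near the threshold. It was lost without background correction (limma adjusted p = 0.0506), with Agilent's processed signals (0.0564) and with the deposited table (0.0569). The call was also lost with slide (0.112) or the replicate number (0.109) as a block. Leaving out any 1 of the 8 samples lost it too (0.0715 to 0.129, differences of 0.59 to 0.72). Over all alternatives the adjusted p ran from 0.0129, with all 10 arrays, to 0.129.

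Against wild type, Ier2 rose in Cdk6-K43M by 0.54 (SE 0.0762, limma adjusted p = 0.00138), a 1.45-fold change, and it was higher on 5 of 5 arrays, the swapped pool at 0.57 included. Without Cdk6-K43M replicate 4 and the swapped pool together, the change was 0.57 with an adjusted p of 0.0633. The fitted change in Cdk6-/- was -0.08 (SE 0.0762, limma adjusted p = 0.568), since the swapped pool read 0.13 against the 4 negative samples. Its 95% interval of -0.25 to 0.09 leaves out a change as large as that in Cdk6-K43M.

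**Figure D2:**
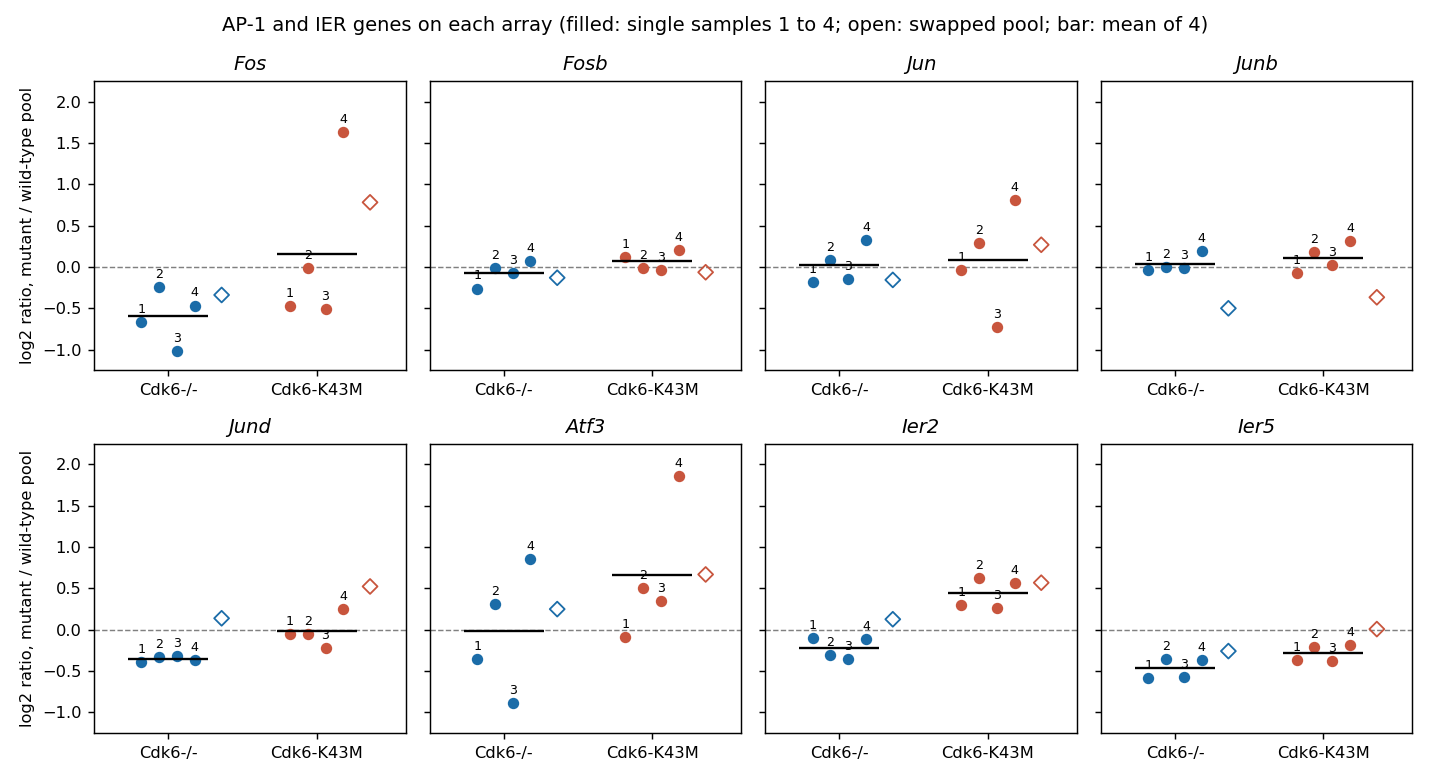
Log2 ratio to the wild-type pool (y axis) of the 8 measured members by genotype (x axis). Filled points are the 4 single samples, numbered by replicate, bars their mean, and open diamonds the dye-exchanged pools. Ier2 and Jund do not overlap between the genotypes, Ier5 lies below 0 in all 8 single samples, and Fos, Jun and Atf3 are highest in Cdk6-K43M replicate 4.

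Ier5 encodes a nuclear protein linked to the heat shock response. It fell in Cdk6-/- by 0.35 (SE 0.0597, limma adjusted p = 0.0109), to 0.783 of the wild-type level. The samples read -0.58, -0.36, -0.58 and -0.36 and the swapped pool -0.26. All 4 single samples were below 0, as for 20.1% of all genes, and so was the swapped pool. With standard errors widened as if the wild-type pool varied like the mean of 4 samples, the adjusted p was 0.131. The Cdk6-K43M samples read -0.37, -0.21, -0.38 and -0.19, again all below 0 (21.5% of all genes), and the swapped pool 0.01.

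In Cdk6-K43M the fitted change of Ier5 was -0.15 (SE 0.0597, limma adjusted p = 0.102). It was -0.29 (adjusted p = 0.0109) from the 8 single-sample arrays without a dye term, and 0.06 (adjusted p = 0.596) with median centring. The genotypes overlapped, and their difference of 0.18 (SE 0.0887, adjusted p = 0.391, 95% interval -0.02 to 0.38) was not called. A call in Cdk6-/- and none in Cdk6-K43M therefore does not show a difference between them.

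Jund encodes the JUN protein that is least dependent on stimulation in most cells. Its brighter probe read -0.40, -0.33, -0.32 and -0.37 in the Cdk6-/- samples and -0.05, -0.05, -0.23 and 0.25 in the Cdk6-K43M samples. The groups did not overlap, and the spread in Cdk6-/- was small (SD 0.0345, n = 4), with 97.9% of all genes having a larger one. The swapped pools lay higher than the single samples of their own genotypes, at 0.14 in Cdk6-/- and 0.52 in Cdk6-K43M. The dye term of this probe was -0.26 (limma adjusted p = 0.0188).

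After the dye term, Jund was higher than wild type in Cdk6-K43M by 0.24 (SE 0.0682, limma adjusted p = 0.0312) and read -0.10 (adjusted p = 0.392) in Cdk6-/-. From the 8 single-sample arrays without the dye term the same values were -0.02 (adjusted p = 0.881) and -0.35 (adjusted p = 0.0141), so the reference to wild type turned on the 2 swapped arrays. With median centring Jund in Cdk6-K43M was 0.54 (adjusted p = 0.000545) and with Agilent's processed signals 0.35 (adjusted p = 0.00979). The call in Cdk6-K43M was lost with the mean of both probes (0.0656), with widened standard errors (0.180), without Cdk6-K43M replicate 1 (0.0535) or 2 (0.0503), and without replicate 4 and the swapped pool together (0.424). Between the mutants, where dye cancels, Jund differed by 0.34 (SE 0.102, adjusted p = 0.216, 95% interval 0.10 to 0.57) and was not called.

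The second Jund probe read -0.29, -0.02, 0.07 and -0.15 in Cdk6-/- and 0.18, 0.31, -0.04 and 0.54 in Cdk6-K43M, with the swapped pools at -0.27 and 0.19. The swapped Cdk6-/- pool was thus below wild type on this probe and above it on the brighter one. Here the groups overlapped, by Cdk6-K43M replicate 3, and the difference over all 56605 probes was 0.35 (SE 0.125, adjusted p = 0.384). Both Jund probes thus gave a difference of like size between the mutants, and neither passed the threshold.

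Junb encodes the JUN protein that can oppose JUN in cell cycle control. In the single samples it lay close to wild type, at -0.04, -0.00, -0.01 and 0.19 in Cdk6-/- and at -0.08, 0.18, 0.02 and 0.32 in Cdk6-K43M. The swapped pools read -0.50 and -0.37, and its dye term was 0.25 (limma adjusted p = 0.0208), opposite in sign to that of Jund. The fitted changes were -0.22 (adjusted p = 0.0775) in Cdk6-/- and -0.14 (adjusted p = 0.196) in Cdk6-K43M, and without swaps and dye term they were 0.03 and 0.11. The second, dim Junb probe read between -0.38 and -0.05 in all 8 single samples and -0.05 and 0.05 in the swapped pools. Between the mutants Junb differed by 0.08 (SE 0.102, adjusted p = 0.775, 95% interval -0.15 to 0.31).

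Fos, the classic immediate early partner of JUN, ranged more widely than nearly all other genes in Cdk6-K43M. It read -0.67, -0.24, -1.02 and -0.47 in Cdk6-/- and -0.48, -0.02, -0.51 and 1.63 in Cdk6-K43M, with the swapped pools at -0.34 and 0.78. All Cdk6-/- samples and 3 of the 4 Cdk6-K43M samples were below wild type, and Cdk6-K43M replicate 4 stood alone above it. The raw Cy5 signal of its probe was 92 to 167 in Cdk6-/-, 125 to 216 in Cdk6-K43M replicates 1 to 3 and 711 in replicate 4, over a local background of 52 to 60. For so dim a probe the offset of 50 draws ratios toward 0. With Agilent's processed signals the same samples ran from -2.31 to -0.34 in Cdk6-/- and replicate 4 read 2.01.

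The SD of Fos was 1.01 in Cdk6-K43M (1.22% of genes had a larger one) and 0.33 in Cdk6-/- (9.17%). Its fitted change was -0.41 (SE 0.299, limma adjusted p = 0.425) in Cdk6-/- and 0.41 (SE 0.299, adjusted p = 0.376) in Cdk6-K43M. A gap of 0.76 between the mutants (SE 0.439, adjusted p = 0.470, 95% interval -0.24 to 1.75) fell to 0.27 (adjusted p = 0.632) without Cdk6-K43M replicate 4. Without that sample and the swapped pool that contains it, Fos in Cdk6-K43M read -0.20 (adjusted p = 0.653).

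Jun, the main partner of FOS, read -0.18, 0.08, -0.15 and 0.33 in Cdk6-/- and -0.03, 0.29, -0.73 and 0.81 in Cdk6-K43M. Replicates 3 and 4 of Cdk6-K43M were the lowest and the highest of all 8 samples, with raw Cy5 signals of 7568 and 24492. Its SD was 0.64 in Cdk6-K43M (3.19% of genes had a larger one) and 0.24 in Cdk6-/- (19.4%). The means hardly differed from wild type, at -0.01 (SE 0.197, limma adjusted p = 0.976) in Cdk6-/- and 0.12 (adjusted p = 0.722) in Cdk6-K43M. The difference of 0.06 between the mutants (SE 0.287, adjusted p = 0.946) had a 95% interval of -0.59 to 0.71, which still holds a change of 1.5-fold in either direction.

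Atf3, a stress-induced relative of the FOS and JUN proteins, spread widely in both genotypes. It read -0.35, 0.31, -0.89 and 0.85 in Cdk6-/- and -0.09, 0.51, 0.35 and 1.86 in Cdk6-K43M. Replicate 4 was the highest in each genotype, and the groups overlapped. The SDs were 0.76 (1.24% of genes had a larger one) and 0.84 (1.84%). The change in Cdk6-K43M was 0.70 (SE 0.318, limma adjusted p = 0.156) and that in Cdk6-/- 0.08 (adjusted p = 0.909). Their difference of 0.68 (SE 0.470, adjusted p = 0.548) was 0.27 (adjusted p = 0.818) without Cdk6-K43M replicate 4.

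Fosb, a paralog of Fos, had no called change on its brighter probe. It read -0.26, -0.01, -0.08 and 0.08 in Cdk6-/- and 0.12, -0.02, -0.03 and 0.20 in Cdk6-K43M. Its fitted changes were -0.11 (SE 0.0636, limma adjusted p = 0.313) and 0.01 (adjusted p = 0.923), and they lay 0.14 apart between the mutants (adjusted p = 0.550, 95% interval -0.08 to 0.35). This probe is dim as well, with raw Cy5 signals of 87 to 137 and Cdk6-/- replicate 1 not well above background, so the offset draws its ratios toward 0. With Agilent's processed signals the change in Cdk6-K43M was 0.19 (adjusted p = 0.324) and the difference between the mutants 0.41 (adjusted p = 0.392), beyond that interval. The second Fosb probe was not well above background on any array.

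Fosl2, which encodes the FOS-related protein FRA2, was not well above background on its first probe in any channel. Its other probe was so in 0 of 4 Cdk6-/- samples, 1 of 4 Cdk6-K43M samples (replicate 4) and 1 of 10 wild-type channels. No fold is given for it.

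Ier3, which encodes an inhibitor of apoptosis induced by stress and growth factors, was well above background in Cdk6-K43M replicates 1 and 4, in 0 of 4 Cdk6-/- samples and in 0 of 10 wild-type channels. It was also above background in the swapped Cdk6-K43M pool and not in the swapped Cdk6-/- pool. Its raw Cy5 signal was 110, 91.5, 87 and 158 in Cdk6-K43M and 70 to 76.5 in Cdk6-/-, over a local background of 52 to 58. The ratios to the pool, which rest on signals near background, were 0.28, 0.07, 0.14 and 0.83 in Cdk6-K43M and 0.24 in its swapped pool, so replicate 4 was far above the others. Without the filter on dim probes the change was 0.32 (SE 0.112, limma adjusted p = 0.116) and the difference between the mutants 0.34 (adjusted p = 0.539).

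Cdk6-K43M replicate 4 was the highest of the 8 single samples for 7 of 8 measured members, and replicate 2 for Ier2. Over all genes, 17.2% were highest in replicate 4, the largest share of the 8 samples. The members' median was 0.44 in this sample and between -0.13 and 0.08 in the other Cdk6-K43M samples, while the Cdk6-/- samples lay between -0.34 and -0.02. The same sample had higher summed levels of some marker lists and not of others. Its summed level (normalized linear intensities added over the list) of the 17 granulocyte, monocyte and macrophage markers on the array was 82215. The other Cdk6-K43M samples had 41713 to 59232, the Cdk6-/- samples 39680 to 60315 and the Cy3 channel of the wild-type pool 46395 to 52219. Such a sum is weighted to the brightest genes. The median ratio of the measured markers was -0.00 in replicate 4, the wild-type level, and -0.84 to -0.31 in the other single samples. In Cdk6-/- replicate 4 the sum was 60315 and the median -0.64. Of these 17 markers, 9 were well above background in every mutant sample, among them the granulocyte genes Elane and Csf3r and the monocyte and macrophage genes Lyz2, Csf1r and Adgre1. A further 3 were so in some mutant samples, including S100a9 (3 of 4 Cdk6-/- and 4 of 4 Cdk6-K43M) and S100a8 (0 of 4 and 1 of 4). The remaining 5, all of granulocytes or their precursors, were so in no mutant sample: Ngp, Camp and Mpo, which the wild-type channels did show, and Ltf and Prtn3, which no channel showed.

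Summed levels of the erythroid and megakaryocyte markers were 2247 in Cdk6-K43M replicate 4 and 853 to 1223 in the other 7 samples. Of the 8 on the array, 3 were well above background in replicate 4, and the sum includes the others, near background. The median ratio of the measured ones in replicate 4 was 0.17. B-lineage markers summed to 445269 in replicate 4, within the range of the other samples, 424903 to 515513. T and NK cell markers summed to 12985 there, also within the range of the other samples, 11696 to 29035. The part of other cell types in the spread of Fos, Jun and Atf3 was not tested. Slide 2 held 2 single samples of each genotype, Cdk6-K43M replicate 4 among them, and Fos was 1.55 higher there in Cdk6-K43M than in Cdk6-/-. Slides 1 and 3 held 1 sample of each genotype and gave 0.19 and -0.26. For Jun the slides gave 0.15, 0.45 and -0.81, and for Atf3 the differences were 0.26, 1.20 and 0.04.

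**Figure D3:**
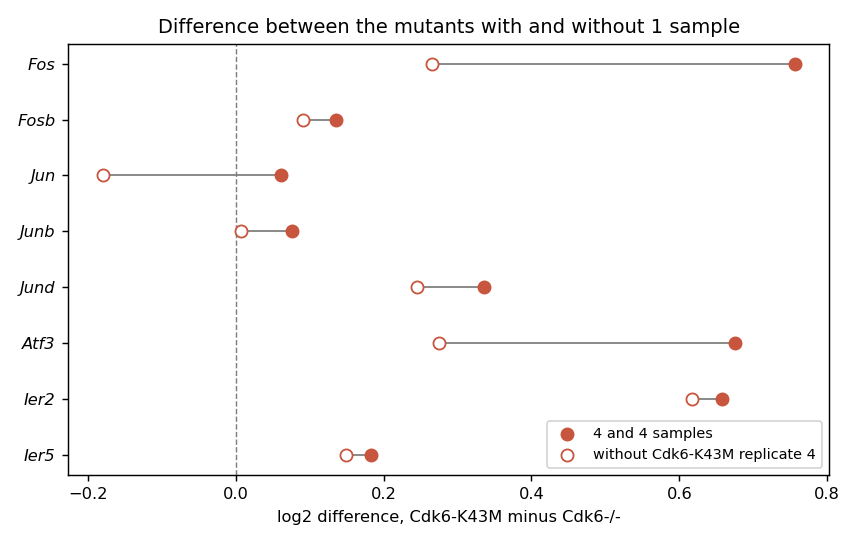
Difference between Cdk6-K43M and Cdk6-/- (x axis, log2) for the 8 measured members (y axis) with all 4 and 4 samples (filled) and without Cdk6-K43M replicate 4 (open). Fos moves from 0.76 to 0.27, Atf3 from 0.68 to 0.27 and Jun from 0.06 to -0.18, while Ier2 moves from 0.66 to 0.62.

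The genes whose ratios followed Fos most closely over the 8 samples were Hsd3b7, Cebpb (a myeloid transcription factor) and Ubtd1, with Pearson r of 0.989, 0.989 and 0.986. Those nearest to Jun were Ifi209, Csf1 (the macrophage growth factor) and Ift81, at 0.988, 0.981 and 0.978. Without Cdk6-K43M replicate 4 the Fos values fell to 0.922, 0.912 and 0.908 and those of Jun to 0.977, 0.966 and 0.962. These genes were picked as the highest of all symbols, so the values are a description, with no test, and all share the same wild-type pool.

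The other parts of the pathway are counted from lists chosen by function. Over all genes, 7.24% were called in Cdk6-/- (3.39% higher and 3.85% lower) and 20.1% in Cdk6-K43M (9.77% higher and 10.3% lower). Of 7 measured further AP-1 family and partner genes, 2 fell in Cdk6-/- (28.6%) and 3 fell and 1 rose in Cdk6-K43M (57.1%). Batf, the AP-1 factor of lymphocytes, fell by 0.57 (SE 0.115, limma adjusted p = 0.0203) and by 0.89 (adjusted p = 0.000902). Ier5l, a relative of Ier5, fell by 0.52 (adjusted p = 0.0230) and by 0.45 (adjusted p = 0.0161), and Mafg rose by 0.23 in Cdk6-K43M (adjusted p = 0.0361). The list's median change was -0.22 in Cdk6-/- and -0.18 in Cdk6-K43M.

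Of 23 MAP kinase and SRF pathway genes, 1 rose and 3 fell in Cdk6-/-, and 5 rose and 5 fell in Cdk6-K43M. These were 17.4% and 43.5% of the list, against 7.24% and 20.1% of all genes. Map3k1, a kinase upstream of JNK, fell by 0.74 (adjusted p = 0.00891) and by 1.09 (adjusted p = 0.000403). Mapk9, which encodes JNK2, rose in Cdk6-/- by 0.33 (adjusted p = 0.0322) and in Cdk6-K43M by 0.34 (adjusted p = 0.0128). The SRF partner Elk3 rose in Cdk6-K43M by 0.55 (adjusted p = 0.00582) and read 0.33 in Cdk6-/- (adjusted p = 0.0878, not called). The list's medians were -0.04 and -0.06.

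Of 33 other immediate early genes, 1 rose and 5 fell in Cdk6-/-, and 4 rose and 6 fell in Cdk6-K43M, with medians of -0.13 and 0.08. These calls were 18.2% and 30.3% of the list, against 7.24% and 20.1% of all genes. Klf2, a quiescence factor of lymphocytes, fell by 1.69 (adjusted p = 1.24e-05) and by 1.09 (adjusted p = 0.000114). Btg2, an antiproliferative gene, fell by 0.70 in Cdk6-/- (adjusted p = 0.0140) and by 0.57 in Cdk6-K43M (adjusted p = 0.0119). The kinase gene Sgk1 rose by 0.51 (adjusted p = 0.0182) and by 0.40 (adjusted p = 0.0175). In Cdk6-K43M, Trib1 fell by 0.96 (adjusted p = 0.00183) and Dusp1, the phosphatase that switches off MAP kinases, rose by 0.46 (adjusted p = 0.00209). In Cdk6-/- these 2 genes read -0.48 (adjusted p = 0.0735) and 0.25 (adjusted p = 0.0668), not called.

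Of 10 AP-1 target genes, 1 fell in Cdk6-/- (Vim, by 0.59, limma adjusted p = 0.0286) and 2 rose in Cdk6-K43M. Those were Ccnd1, which encodes cyclin D1, at 1.45 (adjusted p = 0.0119) and Mmp13, a collagenase gene, at 0.39 (adjusted p = 0.0339). The medians of the 10 targets were -0.33 and 0.09. Their calls were 10% and 20% of the list, near the 7.24% and 20.1% of all genes. Of 9 heat shock genes, 0 were called by limma in Cdk6-/-, and 5 had an unadjusted p under 0.05, against 24.8% of all genes. In Cdk6-K43M 2 fell (22.2%, where 20.1% of all genes were called), Hspa1b by 0.49 (adjusted p = 0.0125) and Hsph1 by 0.35 (adjusted p = 0.0407). The medians of the heat shock genes were -0.16 and -0.14. Between the mutants, 0 of the 82 measured genes of these 5 lists were called by limma, against 0.513% of all genes. Of the 82, 16 had an unadjusted p under 0.05, against 14% of all genes. With Cdk6-K43M replicate 4 and the swapped Cdk6-K43M pool left out together, the counts called in Cdk6-K43M were 2 of 7 partner genes, 1 of 23 pathway genes, 1 of 33 other immediate early genes, 1 of 10 targets and 0 of 9 heat shock genes. The comparison with wild type then had 1 swapped array less, and the count over all genes fell from 4422 to 426.

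**Figure D4:**
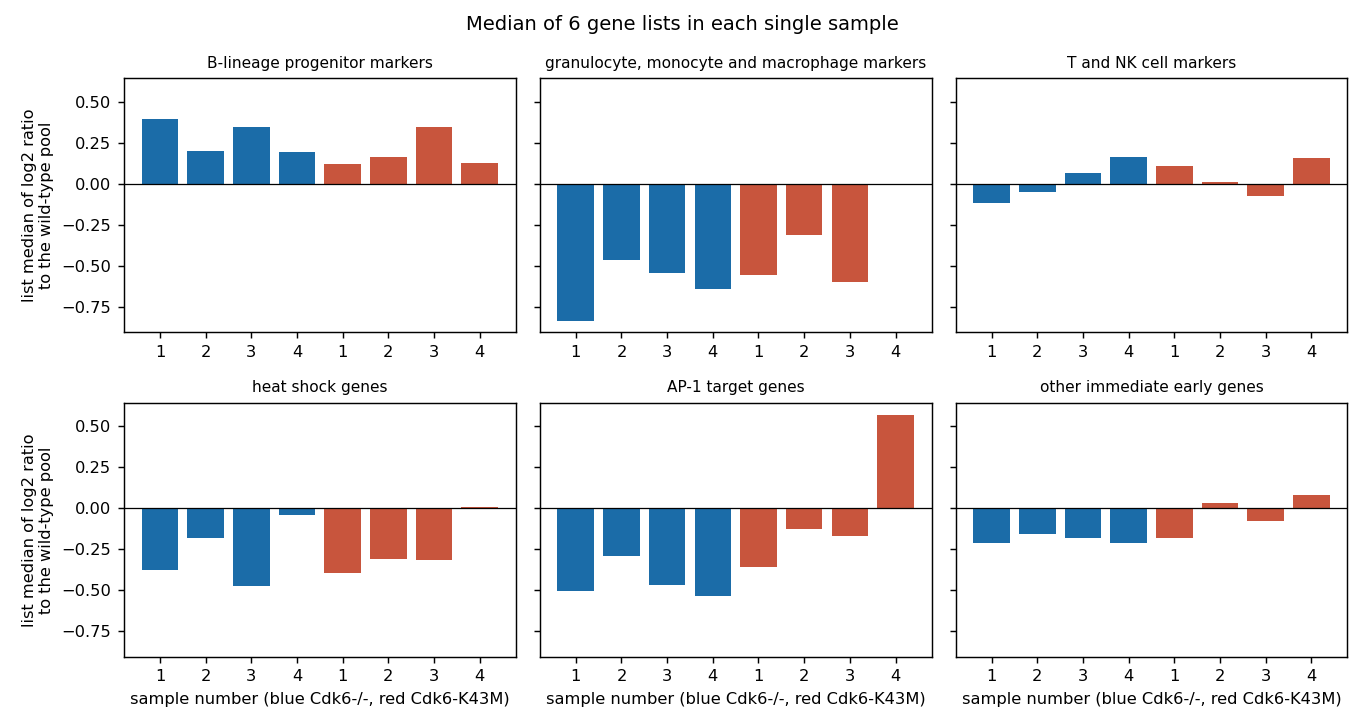
Median log2 ratio to the wild-type pool (y axis) of the measured genes of 6 lists in each of the 8 single samples (x axis; blue Cdk6-/-, red Cdk6-K43M). The AP-1 target genes stand at 0.57 in Cdk6-K43M replicate 4 and below 0 in the other 7 samples, and the granulocyte, monocyte and macrophage markers at -0.00 against -0.84 to -0.31.

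Marker lists were called as follows against wild type, where 7.24% of all genes were called in Cdk6-/- and 20.1% in Cdk6-K43M. Of the 15 measured markers of granulocytes, monocytes and macrophages, calls were 0 higher and 5 lower in Cdk6-/- and 1 higher and 5 lower in Cdk6-K43M. Among the 5 lower in each, S100a8, Ngp, Camp and Mpo passed the filter on dim probes through the wild-type channels alone. Their lower reading was thus built into the selection, and these counts cannot be set against the shares of all genes. Of 13 B-lineage markers, 1 rose in Cdk6-/-, and 5 rose and 2 fell in Cdk6-K43M. Of 7 T and NK cell markers, 2 rose and 2 fell in Cdk6-/- and 2 rose and 1 fell in Cdk6-K43M. Of 4 erythroid and megakaryocyte markers, 1 rose in Cdk6-/- and 0 were called by limma in Cdk6-K43M. There 1 had an unadjusted p under 0.05, against 33.3% of all genes. The single measured mast cell and basophil marker was not called.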

How the data were processed

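Per the file headers, spot and local background intensities were extracted by Agilent's Feature Extraction software (11.5.1.1), with mm9 named for the probes. Log2 values deposited by the authors, loess normalized per their name, served as an alternative; their background correction is not stated by headers or labels. Its direction was read against the scanner values (r = 0.915 to 0.964 by array, array medians -0.02 to -0.00). Per the labels' protocols, 100 ng of RNA went into Agilent's Low Input Quick Amp labelling.

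With limma 3.58.1 in R 4.3.3 and data.table (version 1.17.8), median signals were corrected by normexp (offset 50) and loess normalized within arrays without control spots; non-uniform and outlier spots were set missing and spots of a probe averaged. A probe was kept if well above background in at least 3 of 4 single samples of 1 genotype or 5 of 10 wild-type channels, and a gene's brightest kept probe stood for it. Symbols came from RefSeq (GRCm38.p6) by transcript accession (58.3% of probes). Fits against wild type used 10 arrays with a dye term (degrees of freedom: 7 residual, 2.95 prior). In them the wild-type pool counts as 1 control with no spread, and the swapped pools repeat RNA of the single samples, so the errors may be too small. The mutants were compared on 8 arrays (6 and 2.87). The number of arrays limits the precision. The fits were tested on simulated data. Alternatives were background correction, Agilent's processed signals, median centring, no filter, the mean of probes, slide and replicate blocks, the deposited table, leaving out arrays or the dye term, and widened standard errors. Leaving out Cdk6-K43M replicate 4 with its pool was chosen after seeing the data.

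The members and lists were chosen with earlier results of these data known. Named by rule were all 10 members, up to 3 genes with the smallest p among those called in each pathway list, and the 3 symbols most correlated with Fos and with Jun; a gene that this rule names in the pathway lists is not reported here. Marker lists are given as counts and summed levels; the marker genes named as examples were picked after their values were seen.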

Additional observations from a re-analysis of the deposited data

Results flagged for a closer look

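Ier2 differed between the mutant genotypes, by 0.66 on the log2 scale (SE 0.109, limma adjusted p = 0.0442), with all 4 Cdk6-K43M samples above and all 4 Cdk6-/- samples below the wild-type pool. The swapped Cdk6-/- pool read 0.13, above wild type. The call was lost without any 1 of the 8 samples, with slide or replicate number as a block, without background correction, with Agilent's processed signals and with the deposited table.

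Ier3, which did not pass the filter and so was left out of the main fits, was well above background in 2 of 8 single samples, both Cdk6-K43M, and in 0 of 10 wild-type channels. No member had a sample beyond Dixon's 95% limit in its group of 4.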

How the results depend on the processing

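Over the 8 measured members, 3 comparisons and all alternatives, 385 values kept direction and side of the threshold, 21 lost the call, 2 gained one and 24 changed sign. The cause was not tested.

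The 1593 genes called in Cdk6-/- became 808 with Agilent's processed signals, 802 with median centring, 638 with slide as a block, 3290 from 8 arrays without dye term, 130 with widened standard errors, 741 without Cdk6-K43M replicate 4 and its pool, and 612 (without Cdk6-/- replicate 1) to 1931 with 1 sample left out. The 4422 in Cdk6-K43M became 1270 with widened standard errors, 426 without replicate 4 and its pool, and 3592 to 4505 with 1 sample left out. The 113 between the mutants became 65 with Agilent's processed signals, 33 with slide as a block, 560 from all 10 arrays, 59 without replicate 4 and 36 to 77 with 1 sample left out. Whether the replicate numbers pair the samples was not settled. Same-numbered samples' deviations correlated at 0.08, -0.07, 0.23 and 0.14, against -0.25 to 0.20 for the other pairs. The 0.23 was the highest of all pairs, but not every sample correlated best with its own number. The source names carry other numbers, of which 2 recur in both genotypes; those pairs correlated at 0.20 and -0.04 and were not used as a block. With the title's number as a replicate block, 37 genes and 0 members were called between the mutants (Ier2 0.66, adjusted p = 0.109).

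Members called in Cdk6-/- numbered 2 without dye term, 0 with widened standard errors and 1 otherwise; in Cdk6-K43M 1 with the mean of probes or widened standard errors, 0 without replicate 4 and its pool, and 1 to 2 with 1 sample left out; between the mutants 0 without background correction, with Agilent's signals, the slide or replicate block, the deposited table, or any sample left out (0 to 0).

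Changes of sign in Cdk6-/- were Jun with Agilent's signals (0.052), median centring (0.022), no dye term (0.022) or 1 sample left out (-0.085 to 0.022), Atf3 with Agilent's signals (-0.054), no dye term (-0.019) or 1 sample left out (-0.10 to 0.26), and Junb with no dye term (0.034). In Cdk6-K43M they were Junb with median centring (0.074) or no dye term (0.11), Ier5 with median centring (0.062), Jund with no dye term (-0.019), Fosb (-0.018 to 0.031) and Jun (-0.023 to 0.30) with 1 sample left out, and, without replicate 4 and its pool, Fos (-0.20), Fosb (-0.0082) and Jun (-0.25). Between the mutants Jun ran from -0.18 (without Cdk6-K43M replicate 4) to 0.33 with 1 sample left out. Fosl2 and Ier3 are limited by signal near background.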
